A study of Mus musculus with 11 samples.

Results

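The transcripts of 10 genes that build, coat and break down lipid droplets were followed in the quadriceps, a large thigh muscle, of aged mice. The genes were chosen by name and found by symbol among the 53465 genes of the deposited count table, and all 10 were present and passed the filter on low counts. They are the perilipins Plin2, Plin4 and Plin5, the lipases Pnpla2 and Lipe with the co-activator Abhd5, and the synthesis genes Gpam, Lpin1, Dgat1 and Dgat2. Of 11 libraries, 5 came from mice given the solvent DMSO and 6 from mice given myriocin, a fungal compound that blocks serine palmitoyltransferase at the head of sphingolipid synthesis. Mice of both groups carried the strain name C57L/6JRj in the labels, entered treatment when 18 months old and were treated for 10 weeks. Nothing in the labels ties each library to its own mouse, so a p-value here measures how far these samples scatter, which may in part be technical. The dose is not given in the sources used here. Levels are CPM, the reads of a gene scaled to a common total of reads counted in genes.

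Muscle fibres store fatty acids as triglyceride in lipid droplets, which lie beside mitochondria and serve as fuel. Triglyceride is built on glycerol 3-phosphate: Gpam adds the first fatty acid, Lpin1 removes the phosphate to give diacylglycerol, and Dgat1 and Dgat2 add the last fatty acid. Breakdown starts with Pnpla2, the triglyceride lipase also called ATGL, which Abhd5 activates, and goes on with Lipe, the hormone-sensitive lipase that acts on diacylglycerol. Perilipins coat the droplet and control the access of these lipases. Several of these genes are known targets of PPARs, nuclear receptors that bind fatty acids. Fat cells also use the whole set, so muscle tissue with fat cells in it carries these transcripts from both sources.

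The stretches just before the start sites are shown for 4 members, since PPARs bind repeats of the element AGGTCA and the perilipins are textbook PPAR targets. RefSeq windows of build GRCm38.p6 matched 8 members, all but Dgat1 and Dgat2, with 11 windows in all. The 250 bases before a start are given 5′ to 3′ on the strand of the gene, with AGGTCA or its reverse complement in capitals. Plin2 and Plin5 are the droplet coat genes with a match, and Pnpla2 and Lipe are the lipases, whose windows held none. The windows were chr4:86670060-86670309 on the minus strand for Plin2 and chr17:56117549-56117798 on the minus strand for Plin5. They were chr7:141454938-141455187 on the plus strand for Pnpla2 and chr7:25390113-25390362 on the minus strand for Lipe.
Plin2: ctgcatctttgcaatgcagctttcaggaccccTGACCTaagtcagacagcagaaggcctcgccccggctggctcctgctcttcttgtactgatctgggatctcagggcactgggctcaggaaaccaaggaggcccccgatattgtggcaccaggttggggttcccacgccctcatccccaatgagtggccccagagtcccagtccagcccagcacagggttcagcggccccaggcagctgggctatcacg
Plin5: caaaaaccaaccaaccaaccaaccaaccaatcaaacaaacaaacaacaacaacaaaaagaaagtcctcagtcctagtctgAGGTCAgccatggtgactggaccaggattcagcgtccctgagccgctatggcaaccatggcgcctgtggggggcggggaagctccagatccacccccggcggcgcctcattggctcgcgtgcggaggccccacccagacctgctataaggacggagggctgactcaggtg
Pnpla2: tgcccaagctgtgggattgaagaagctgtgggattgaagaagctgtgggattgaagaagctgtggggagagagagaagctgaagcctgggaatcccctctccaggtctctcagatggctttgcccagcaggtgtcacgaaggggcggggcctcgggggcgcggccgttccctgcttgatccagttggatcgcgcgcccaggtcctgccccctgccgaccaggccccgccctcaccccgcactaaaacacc
Lipe: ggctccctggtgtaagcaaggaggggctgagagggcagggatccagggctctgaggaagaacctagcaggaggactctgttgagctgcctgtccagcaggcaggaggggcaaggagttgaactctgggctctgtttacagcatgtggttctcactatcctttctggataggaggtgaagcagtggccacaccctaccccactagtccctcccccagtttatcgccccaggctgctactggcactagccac
The element was found in windows of 5 of the 8 genes, Plin2, Plin5, Abhd5, Lpin1 and Gpam, and in 5 of 11 windows, against 14.0% of all 32851 windows searched on both strands. It began 218 bases before the start of Plin2 on the reverse strand and 170 bases before the start of Plin5 on the forward strand. The direct repeat of this element with 1 base between its copies (the DR1 motif), with up to 2 mismatches allowed, was found for Plin2 alone, overlapping its single element, and in 3.24% of all windows. Other motifs were searched on both strands too. GGGCGG lay in windows of 5 of the 8 members, in 6 of 11 windows, against 32.7% of all windows. CCAAT lay in windows of 4 members, in 4 of 11 windows, against 33.8% of all. The cyclic AMP element TGACGTCA, with 1 mismatch allowed, was found for 3 members, Gpam, Lpin1 and Plin5, in 3 of 11 windows and in 10.6% of all windows. In each of these 3 members a match covered the same bases as the AGGTCA element. Gpam alone had a further match apart from it, 34 bases before a start. Lipe has 2 windows, and its GGGCGG and CACGTG matches lay in the one not printed, chr7:25395988-25396237. The E-box CACGTG was found for Lipe alone and in 6.02% of all windows, and the E-box CAGCTG for Plin2 alone and in 13% of all. TATAAA was found for 0 members and in 12.4% of all windows. These matches describe letters and say nothing on binding in this tissue.

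Libraries held 22241131 to 23163721 reads in genes, which makes the floor of 3 counts 0.130 to 0.135 CPM, and members had between 181 and 11368 counts. Muscle markers were as labelled, with Acta1 at 34078 to 48376 CPM. DMSO replicate 2 stood apart. Its 8 adipocyte markers summed to 2598 CPM, against 548 to 1076 CPM in the other DMSO libraries and 683 to 1350 CPM with myriocin, and 7 of the 8 markers were highest there. Ucp1, the uncoupling protein that defines brown fat, was at 48.6 CPM in that library and at 0 to 0.79 CPM in the other 10. Neutrophil markers summed to 685 CPM there and to at most 91.4 CPM elsewhere. The liver gene Alb was at 85.6 CPM in DMSO replicate 4, 63.9 CPM in DMSO replicate 5 and 73.7 CPM in Myriocin replicate 4, with 4.44 to 20.6 CPM elsewhere. Member results are therefore given with and without DMSO replicate 2.

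Pnpla2 was the most abundant of the 10 transcripts per length, at 115 ± 22.1 CPM per kilobase of exon (SD, n = 11). Length here is that of all annotated exons of a gene merged, and which transcripts the muscle used was not tested. Plin4 at 47.5 ± 13.9 and Lpin1 at 43.3 ± 4.98 CPM per kilobase (SD, n = 11) came next and did not differ from each other beyond their spread, Plin4 lying above Lpin1 in 7 of 11 libraries. The gap from Pnpla2 to Plin4 and the gap from Lpin1 to Gpam, at 17.0 ± 3.72 CPM per kilobase, each held in 11 of 11 libraries. Below Gpam, neighbours in the order overlapped within their SDs. Dgat2 was at 16.5 ± 9.79, Plin2 at 10.8 ± 2.60 and Plin5 at 9.96 ± 3.38 CPM per kilobase. Lipe, Dgat1 and Abhd5 formed the low end, with means of 6.45, 5.70 and 4.93 CPM per kilobase. The co-activator Abhd5 was thus less abundant per length than the lipase it activates, the ratio of Pnpla2 to Abhd5 lying between 17.4 and 32.0 in the 11 libraries.

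**Figure D1:**
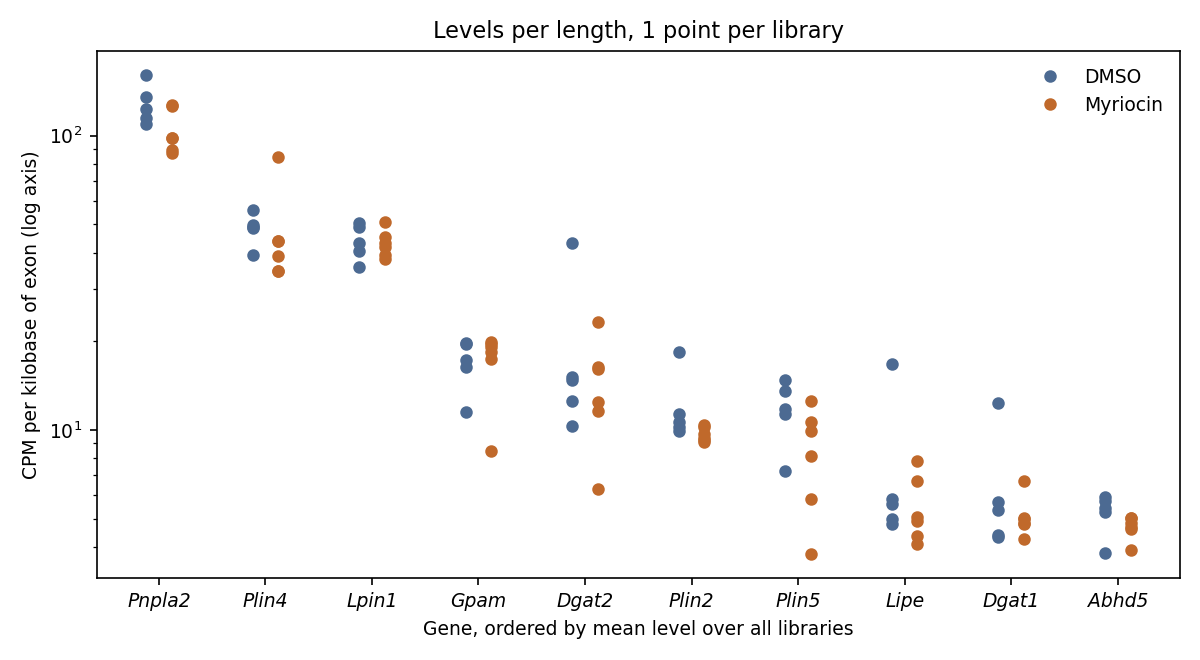
Level of each member per kilobase of exon in every library, on a log axis, with DMSO libraries in blue and myriocin libraries in orange. Pnpla2 lies highest at a mean of 115 CPM per kilobase and Abhd5 lowest at 4.93, and the single high DMSO points of Dgat2, Plin2, Lipe and Dgat1 are DMSO replicate 2.

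No member passed the test between myriocin and DMSO. Of 14117 genes tested with edgeR, 0 passed at an adjusted p under 0.05 (0% of genes), 660 had an unadjusted p under 0.05 (4.68%), and DESeq2 called 3 genes, none of them a member. Among the members 0 passed, and 1 of 10, Plin2, had an unadjusted p under 0.05. It was lower with myriocin, as were 2.34% of all genes at that p, while 0 members and 2.33% of all genes were higher. The log2 fold change, myriocin minus DMSO, was negative for 8 members and positive for 2, against 53.7% negative and 46.3% positive over all genes, and its median was -0.27 over the members and -0.012 over all genes. Without DMSO replicate 2 the members had 6 negative values, a median of -0.048 and 0 with an unadjusted p under 0.05. The libraries of the groups overlapped for each of the 10 members, while 0.602% of all tested genes had groups that did not overlap. In whole tissue, fewer cells of a type and less RNA per cell cannot be told apart.

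**Figure D2:**
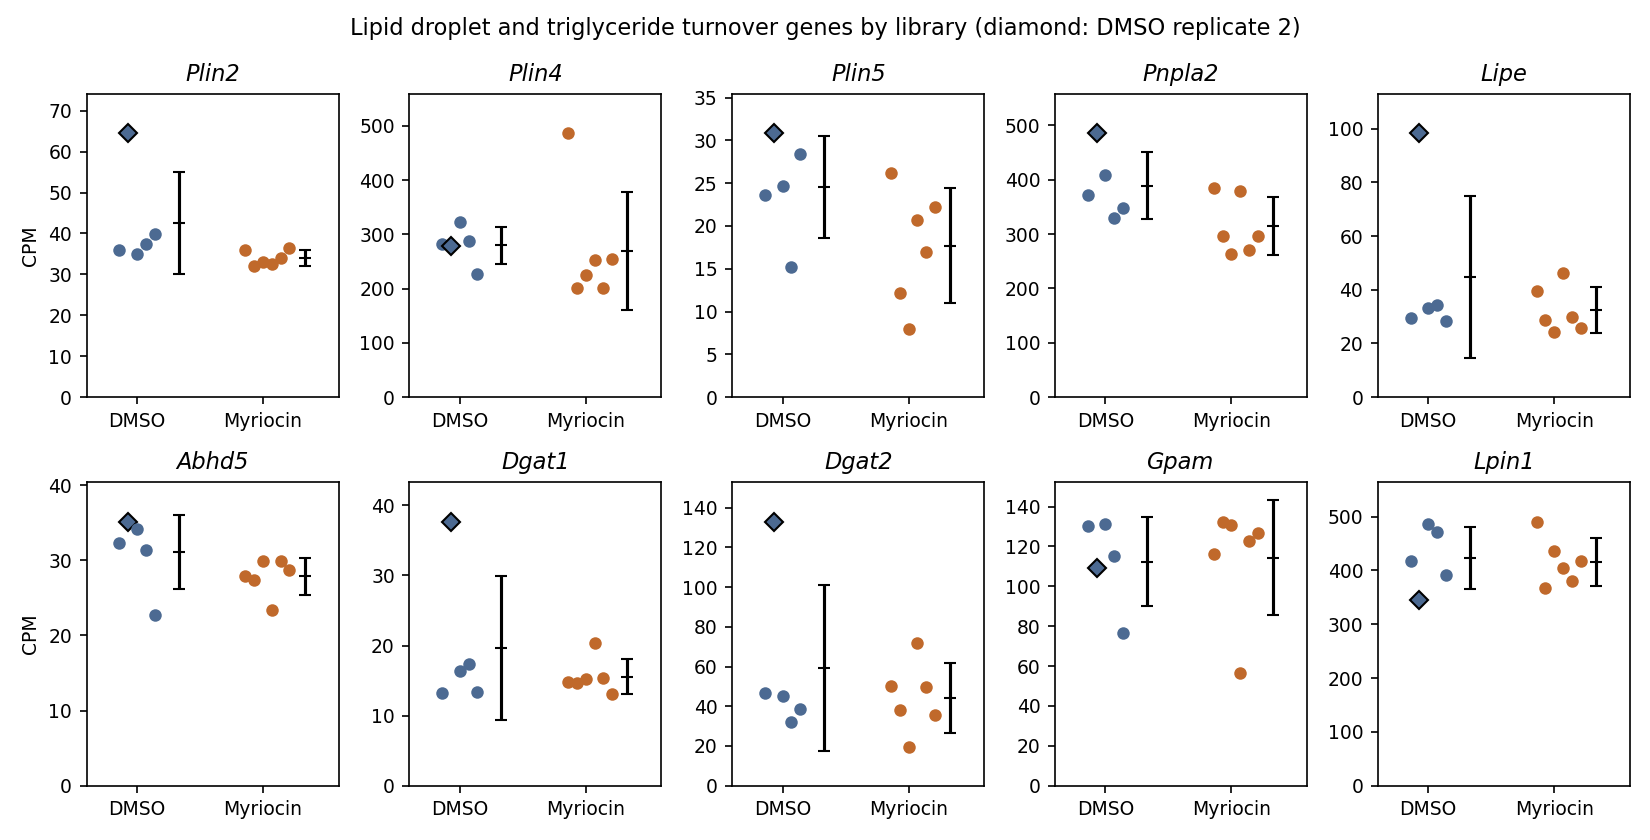
CPM of each member in every library, with the mean and SD of each group in black beside the points and DMSO replicate 2 drawn as a diamond. That library is the highest of all 11 for 7 members (Plin2, Plin5, Pnpla2, Lipe, Abhd5, Dgat1 and Dgat2) and the lowest for Lpin1.

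Among the droplet coat genes, Plin2 and Plin5 had lower means with myriocin and Plin4 had like means, and 0 of the 3 passed the test. Plin5 had the widest spread between libraries of these 3, its highest library at 3.90 times its lowest. Plin2 (ENSMUSG00000028494, GRCm38 chromosome 4, 86648386 to 86670060, minus strand), the perilipin found in most tissues, was at 35.9, 64.5, 34.9, 37.3 and 39.8 CPM in DMSO replicates 1 to 5. With myriocin it ran from 32.0 to 36.6 CPM with a median of 33.5 CPM. The myriocin libraries lay close together, 6 of 6 under the mean of the controls, and DMSO replicate 2 was far above the rest. Means were 42.5 ± 12.5 CPM (SD, n = 5) and 34.0 ± 1.86 CPM (SD, n = 6), a log2 fold change of -0.28 (SE 0.13, edgeR adjusted p = 0.936). Without DMSO replicate 2 the DMSO mean was 37.0 ± 2.15 CPM and the log2 fold change -0.10 (SE 0.070).

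Plin5 (ENSMUSG00000011305, chromosome 17, 56111601 to 56117596, minus strand), the perilipin of oxidative tissues that ties droplets to mitochondria, was at 23.6, 30.8, 24.6, 15.2 and 28.4 CPM with DMSO. With myriocin it ran from 7.91 CPM in replicate 3 to 26.2 CPM in replicate 1, with a median of 18.8 CPM. In 5 of 6 myriocin libraries it lay below the DMSO mean, while DMSO replicate 4 lay below 4 myriocin libraries. The log2 fold change of -0.43 (SE 0.29) had a 95% interval from -1.07 to 0.21, an edgeR adjusted p of 0.936, and was -0.36 (SE 0.32) without DMSO replicate 2. Without Myriocin replicate 3, its lowest library, it was -0.28 (SE 0.22). The summed slow and oxidative fibre markers were lowest in the same Myriocin replicate 3, at 452 CPM against 1094 to 2862 CPM elsewhere, and their part in the Plin5 value was not tested.

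Plin4 (ENSMUSG00000002831, chromosome 17, 56100591 to 56109803, minus strand), which coats new droplets in fat and muscle and lies beside Plin5, had like means in both groups. It was at 283, 279, 322, 287 and 227 CPM with DMSO and from 200.3 to 486 CPM with myriocin, with a median of 238 CPM. Myriocin replicate 1 was the highest library at 486 CPM, the next myriocin library standing at 254 CPM. Between the groups the log2 fold change was -0.011 (SE 0.22, edgeR adjusted p = 0.997), and -0.029 (SE 0.25) without DMSO replicate 2. Without Myriocin replicate 1 it was -0.27 (SE 0.10), and with other libraries left out its sign changed.

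The lipases had lower means with myriocin and did not pass the test, and the sign of the Lipe difference rested on 1 library. Pnpla2 (ENSMUSG00000025509, chromosome 7, 141455198 to 141460743, plus strand) was at 372, 486, 409, 330.2 and 347 CPM with DMSO. With myriocin it ran from 263 to 384 CPM with a median of 296 CPM. The mean of the controls was above 6 of 6 myriocin libraries, and 4 of these, at 263 to 296 CPM, below every DMSO library, while replicates 1 and 4, at 384 and 379 CPM, lay among them. Means were 389 ± 61.7 CPM (SD, n = 5) and 315 ± 53.5 CPM (SD, n = 6). The log2 fold change of -0.26 (SE 0.12, edgeR adjusted p = 0.936) had a 95% interval that began at -0.52 and just reached 0. It was -0.19 (SE 0.12) without DMSO replicate 2 and kept its sign in all 25 alternatives, between -0.43 and -0.19.

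Lipe (ENSMUSG00000003123, chromosome 7, 25379527 to 25398710, minus strand) was at 29.4, 98.3, 33.1, 34.3 and 28.2 CPM with DMSO and from 24.2 to 46.3 CPM with myriocin, with a median of 29.4 CPM. DMSO replicate 2 held 3.15 times the mean of the other DMSO libraries, and those lay within the myriocin range. The log2 fold change was -0.40 (SE 0.34, edgeR adjusted p = 0.936) and turned to 0.078 (SE 0.18) without DMSO replicate 2. Of its exon bases, 918 overlap the antisense transcript 4732471J01Rik, itself at 0.315 to 0.828 CPM, and the strand setting of the counting is not given in the sources used here.

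Abhd5 (ENSMUSG00000032540, chromosome 9, 122351608 to 122381524, plus strand) varied little, at 32.3, 35.2, 34.2, 31.4 and 22.8 CPM with DMSO and from 23.3 to 29.9 CPM with myriocin, with a median of 28.3 CPM. Each myriocin library lay below the 4 higher DMSO libraries, and DMSO replicate 5 lay below all of them. Myriocin minus DMSO was -0.12 on the log2 scale (SE 0.092, edgeR adjusted p = 0.936), with a 95% interval from -0.32 to 0.072. Without DMSO replicate 2 it was -0.095 (SE 0.096), and without DMSO replicate 5 it was -0.21 (SE 0.069, edgeR adjusted p = 0.999). Of its exon bases, 950 overlap the antisense transcript A730085K08Rik, which was at 0 to 0.0871 CPM.

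The genes of the first synthesis steps, Gpam and Lpin1, had like levels in both groups. Gpam (ENSMUSG00000024978, chromosome 19, 55067268 to 55127238, minus strand), the mitochondrial acyltransferase, was at 130.1, 109, 131, 115 and 76.4 CPM with DMSO. With myriocin it ran from 56.6 to 132 CPM with a median of 125 CPM. Myriocin replicate 4 and DMSO replicate 5 were the low libraries and had high Alb, as did DMSO replicate 4 with Gpam at 115 CPM. On the log2 scale the difference was 0.06 (SE 0.20, edgeR adjusted p = 0.982). It was 0.032 (SE 0.22) without DMSO replicate 2 and 0.19 (SE 0.11) without Myriocin replicate 4. Without the 3 libraries of highest Alb it was 0.079 (SE 0.083). The same exclusion kept DMSO replicate 2 and moved other members further from 0. Pnpla2 went to -0.43 (SE 0.13), Lipe to -0.78 (SE 0.41), Dgat1 to -0.55 (SE 0.30) and Dgat2 to -0.89 (SE 0.46). Pnpla2 and Abhd5, at -0.18 (SE 0.060), then had an unadjusted p under 0.05, both lower, where 3.07% of all genes did so. Over all genes, 7.12% had such a p in either direction, and 0 members passed (smallest edgeR adjusted p = 0.659). An exclusion chosen after seeing the data left out DMSO replicates 2 and 5 and Myriocin replicate 4. There Plin2 was at -0.050 (SE 0.064), Lipe at -0.098 (SE 0.16), Dgat1 at -0.081 (SE 0.097) and Dgat2 at -0.073 (SE 0.32). Pnpla2 was at -0.27 (SE 0.13) and Abhd5 at -0.16 (SE 0.057).

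Lpin1 (ENSMUSG00000020593, chromosome 12, 16535669 to 16610966, minus strand), a phosphatase that also acts as a co-activator of PPARs in the nucleus, was the steadiest member. It was at 417, 345, 486, 472 and 392 CPM with DMSO and from 368 to 491 CPM with myriocin, with a median of 411 CPM. Its highest library was 1.42 times its lowest, the smallest such ratio among the 10 members, and the groups lay over each other. The 95% interval of its log2 fold change ran from -0.21 to 0.23 around 0.012 (SE 0.10, edgeR adjusted p = 0.993). It was -0.066 (SE 0.090) without DMSO replicate 2, its lowest library.

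The genes of the last step, Dgat1 and Dgat2, were high in DMSO replicate 2 and alike in both groups otherwise. Dgat1 (ENSMUSG00000022555, chromosome 15, 76502015 to 76511953, minus strand) was at 13.3, 37.7, 16.4, 17.4 and 13.4 CPM with DMSO and from 13 to 20.4 CPM with myriocin, with a median of 15 CPM. Dgat2 (ENSMUSG00000030747, chromosome 7, 99153658 to 99182719, minus strand) was at 46.8, 133.0, 45.4, 31.9 and 38.7 CPM with DMSO and from 19.4 to 71.8 CPM with myriocin, with a median of 43.9 CPM. DMSO replicate 2 held 2.49 times the mean of the other DMSO libraries for Dgat1 and 3.27 times for Dgat2. Dgat2 had the widest range of the 10 members, its highest library at 6.85 times its lowest.

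The log2 fold changes were -0.28 (SE 0.25, edgeR adjusted p = 0.936) for Dgat1 and -0.36 (SE 0.42, edgeR adjusted p = 0.948) for Dgat2. Without DMSO replicate 2 both turned positive, to 0.066 (SE 0.13) and 0.15 (SE 0.31). The intervals with all libraries ran from -0.83 to 0.27 for Dgat1 and from -1.30 to 0.59 for Dgat2.

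**Figure D3:**
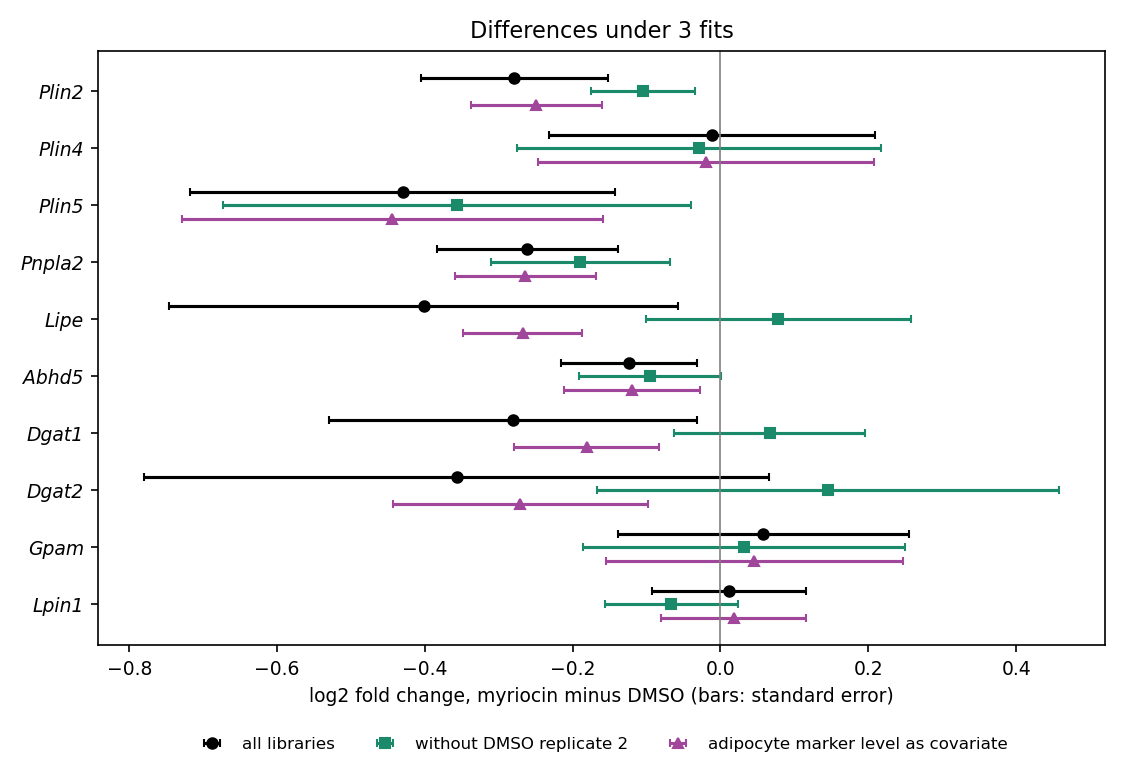
Log2 fold change of each member, myriocin minus DMSO, with its standard error, from all 11 libraries (black), without DMSO replicate 2 (green) and with the adipocyte marker level as a covariate (purple). Lipe, Dgat1, Dgat2 and Lpin1 change sign without DMSO replicate 2, while Plin2, Plin4, Plin5, Pnpla2 and Abhd5 stay negative in all 3 fits.

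Members rose and fell with the adipocyte markers to very different degrees. After the group means were taken off, Lipe followed the mean log2 CPM of the 8 markers closely, with Pearson's r = 0.98 and Spearman's rho = 0.99 (permutation test, n = 11, adjusted p = 0.00400 for both over 100 relations between 10 members and 10 marker lists). Without the 2 libraries farthest from the median marker level, DMSO replicates 2 and 5, r was 0.95. Dgat1 (r = 0.94, rho = 0.74, permutation adjusted p = 0.0585 and 0.257) and Dgat2 (r = 0.88, rho = 0.86, permutation adjusted p = 0.0585 and 0.101) did not pass, and kept r = 0.73 and 0.78 without those libraries. For Pnpla2 r was 0.75 and rho 0.61 (permutation adjusted p = 0.0603 and 0.379), and 0.67 without them. Plin2 had r = 0.77 and rho = 0.34 (permutation adjusted p = 0.448 and 0.683), which fell to -0.09 without them and so rested on those libraries. Gpam and Lpin1 had negative values, r = -0.19 and -0.38 and rho = -0.34 and -0.25 (permutation adjusted p = 0.792 and 0.692 for r, 0.683 and 0.780 for rho), and r = -0.71 and 0.13 without those libraries. Plin5 had r = 0.37 and rho = 0.42 with the adipocyte markers (permutation adjusted p = 0.461 and 0.624), and 0.48 without them. With the slow and oxidative fibre markers Plin5 had r = 0.68 and rho = 0.61 (permutation adjusted p = 0.155 and 0.379), and 0.74 without DMSO replicate 2 and Myriocin replicate 5. Its r was higher with the general skeletal muscle markers, r = 0.84 and rho = 0.69 (permutation adjusted p = 0.0585 and 0.277), and 0.67 without DMSO replicate 5 and Myriocin replicate 3. Lipe, Dgat1, Dgat2 and Pnpla2 also went with other marker lists that were highest in DMSO replicate 2, and none of these relations passed. With the neutrophil markers Dgat1 had r = 0.86 and rho = 0.90 (permutation adjusted p = 0.0585 and 0.101), and 0.89 without DMSO replicate 2 and Myriocin replicate 5. With the brown adipocyte markers Dgat1 had r = 0.94 and rho = 0.65 (permutation adjusted p = 0.0874 and 0.390), and 0.23 without DMSO replicate 2 and Myriocin replicate 4. Lipe had r = 0.93 with the brown adipocyte and 0.78 with the neutrophil markers (permutation adjusted p = 0.0585 and 0.143). For Dgat2 and Pnpla2, r with the brown adipocyte markers was 0.82 and 0.68 (permutation adjusted p = 0.0585 for both). Dgat2 had r = 0.76 with the slow and oxidative fibre markers (permutation adjusted p = 0.0603).

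The adipocyte level itself had like means, at a mean log2 CPM of 4.73 ± 1.02 (SD, n = 5) in controls and 4.68 ± 0.45 (SD, n = 6) after myriocin. The control mean rested on DMSO replicate 2, at 6.47. The other controls, at 3.85 to 4.64, each lay below the myriocin mean, and the myriocin libraries ran from 4.06 to 5.30. With the level of the same markers as a covariate, edgeR gave Lipe -0.27 (SE 0.08), Plin2 -0.25 (SE 0.09) and Pnpla2 -0.26 (SE 0.10). These 3 of 10 members had an unadjusted p under 0.05, all lower, where 2.81% of all genes did so. None of the members passed after adjustment in that fit. Plin5 stayed at -0.44 (SE 0.28), and Dgat1 and Dgat2 were at -0.18 (SE 0.10) and -0.27 (SE 0.17). When DMSO replicate 2 was left out as well, Plin2 was at -0.09 (SE 0.08), Lipe at -0.25 (SE 0.11) and Pnpla2 at -0.36 (SE 0.11).

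**Figure D4:**
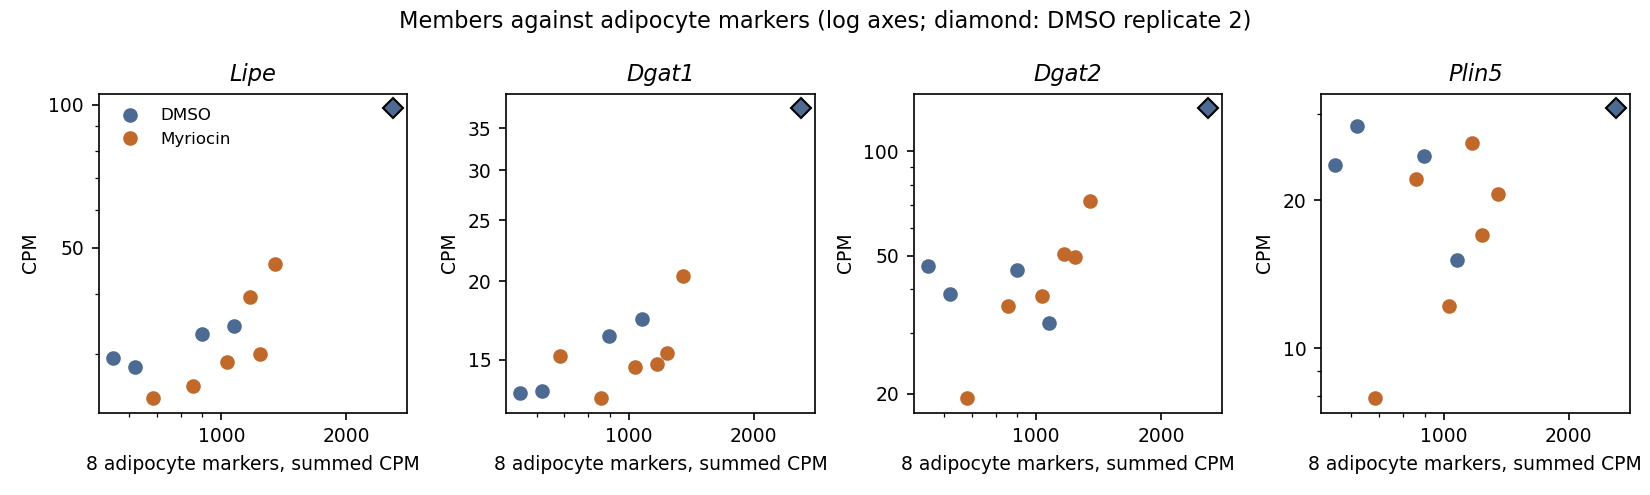
CPM of Lipe, Dgat1, Dgat2 and Plin5 against the summed CPM of the 8 adipocyte markers, 1 point per library on log axes, with DMSO replicate 2 as a diamond. Lipe climbs along the marker level (r = 0.98 after the group means were taken off), while Plin5 scatters (r = 0.37).

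Among the 45 pairs of members, 3 passed on Pearson's r and 0 on Spearman's rho after adjustment over the pairs. These were Lipe with Dgat1 (r = 0.94, rho = 0.80), Lipe with Dgat2 (r = 0.89, rho = 0.82) and Pnpla2 with Dgat2 (r = 0.82, rho = 0.79), each with a permutation adjusted p of 0.0333 for r (n = 11) and 0.102 for rho. Without the 2 libraries farthest from the median of the first gene, r fell to 0.44, 0.60 and 0.69. Pnpla2 with Lipe gave r = 0.81 and rho = 0.55 (permutation adjusted p = 0.0674 and 0.470), and r = 0.75 without the farthest libraries. Plin4 with Lpin1 gave r = 0.67 and rho = 0.72 (permutation adjusted p = 0.1 and 0.102), and 0.53 without them.

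Shares within each gene family were alike in both groups. Per length, Plin4 made up 56.7 ± 8.48% (SD, n = 5) of the Plin1 to Plin5 transcripts in controls and 60.1 ± 6.32% (SD, n = 6) after myriocin. Plin1, the perilipin of fat cells, made up 20.6% in DMSO replicate 2 and 2.74% to 11.2% in the other libraries. Lpin1 made up 95.5% to 97.4% of the lipin transcripts in every library. Gpam held 60.9 ± 6.41% (SD, n = 5) of the Gpam, Gpat3 and Gpat4 transcripts in controls and 63.3 ± 8.42% (SD, n = 6) after myriocin. Dgat2 exceeded Dgat1 per length in all 11 libraries, by 1.26 to 3.50 times. Pnpla2 exceeded Lipe by 16.0 to 24.7 times in 10 libraries and by 9.63 times in DMSO replicate 2.

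Genes with the most similar profile were found by the mean absolute gap in log2 CPM over the 11 libraries, each gene centred on its own mean, among 8955 other genes of at least 5 CPM. For Lipe the closest was Fabp4, the fatty acid binding protein of fat cells, at a gap of 0.11, and Fabp4 was also the closest to Dgat2, at 0.20. The genes nearest to Plin5 were Mgp, Mb and Fhl1, at 0.18 to 0.22, Mb being myoglobin, the oxygen store of oxidative fibres. Plin4 was nearest to Foxo1, a transcription factor of the fasting response, at 0.13, with Spsb1 and Prickle3 next. Pnpla2 was nearest to Aldh2, a mitochondrial aldehyde dehydrogenase, then Nrbp2 and Selenbp1, all at 0.10. Plin2 was nearest to Arpc1b, Dgat1 to Tspo and Gpam to Naa25, at 0.05, 0.10 and 0.10. A member set against its own flat mean had a distance of 0.16 for Plin2 to 0.46 for Dgat2.

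Other genes of droplet formation, breakdown and glycerolipid synthesis gave values spread on both sides of 0, and 0 passed. Over all genes, 53.7% of values were below 0, and 2.34% were lower with an unadjusted p under 0.05. Of 13 tested coat and formation genes, 4 were higher and 9 lower with myriocin, with a median log2 fold change of -0.09, and 1 had an unadjusted p under 0.05. Hsd17b11, a droplet-associated dehydrogenase, was at -0.25 (SE 0.08), Vps13d at 0.16 (SE 0.09) and the droplet GTPase Rab18 at 0.09 (SE 0.06). The coat gene Plin3 was at -0.09 (SE 0.17). The fat cell genes Plin1 and Cidec were at -0.41 (SE 0.58) and -0.64 (SE 0.54), with 107 and 115 CPM in DMSO replicate 2 and at most 40.9 and 35.4 CPM elsewhere. The lowest value of the list was that of Cidea, named after its values were seen, at 34.9 CPM in the same library and 0.854 to 5.23 CPM elsewhere. Without that library this list had 8 higher and 5 lower.

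Of 12 tested lipolysis genes, 3 were higher and 9 lower, with a median of -0.08, and 1 was lower with an unadjusted p under 0.05. Mgll, the monoglyceride lipase of the last step, was at -0.30 (SE 0.12), the kinase subunit Prkacb at 0.12 (SE 0.08) and G0s2, the inhibitor of Pnpla2, at -0.45 (SE 0.38). Of 19 tested glycerolipid synthesis genes, 7 were higher and 12 lower, with a median of -0.05. Among them 3 were lower with an unadjusted p under 0.05, against 2.34% of all genes. Gpat3, an acyltransferase of the endoplasmic reticulum, was at -0.44 (SE 0.15), glycerol kinase, listed as Gk, at -0.71 (SE 0.31) and the acyl-CoA synthetase Acsl1 at -0.21 (SE 0.09). Without DMSO replicate 2 these lists had 6 higher against 6 lower and 9 higher against 10 lower, where 51.3% of all genes were lower. At an unadjusted p under 0.05, lipolysis then had 1 gene higher and 0 lower, and synthesis 1 higher and 1 lower. Over all genes 4.99% had such a p in either direction.

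For PPAR-responsive muscle genes 17 of 17 values lay below 0 (median -0.25 on the log2 scale), against 53.7% of all genes, and 0 genes passed. This list was chosen with earlier results of these data known, so the count is not independent support. There were 5 with an unadjusted p under 0.05, all lower, against 2.34% of all genes. Acot1, a cytosolic acyl-CoA thioesterase, was at -0.85 (SE 0.23) and Lpl, lipoprotein lipase, at -0.59 (SE 0.18), both with an edgeR adjusted p of 0.936. Without DMSO replicate 2 the 17 values were again negative, with a median of -0.21. Marker lists with mostly negative values stood beside them, namely 5 of 5 endothelial, 5 of 5 tested liver, 7 of 9 slow and oxidative fibre and 6 of 8 adipocyte markers. Also lower were 3 of 3 tested neutrophil, 2 of 2 tested brown adipocyte and 3 of 4 fibro-adipogenic progenitor markers. Higher were 5 of 7 fast glycolytic fibre, 3 of 5 general skeletal muscle and 2 of 4 macrophage markers. The summed slow and oxidative fibre markers were at 2116 ± 673 CPM (SD, n = 5) in controls and 1472 ± 709.6 CPM (SD, n = 6) after myriocin. As a mean log2 CPM, the measure used for the adipocyte level, these markers were nearly equal. They were at 5.21 ± 1.53 (SD, n = 5) in controls and 5.08 ± 1.46 (SD, n = 6) after myriocin. The part of these cell types in the PPAR-responsive values was not tested. Of 12 regulators, 3 were higher and 9 lower, with a median of -0.06. The oxysterol receptor Nr1h3 was at -0.27 (SE 0.13), Mlxipl, the carbohydrate-responsive factor, at -0.11 (SE 0.08) and Pparg, the PPAR of fat cells, at -0.43 (SE 0.34), and without DMSO replicate 2 the split was 6 to 6.

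**Figure D5:**
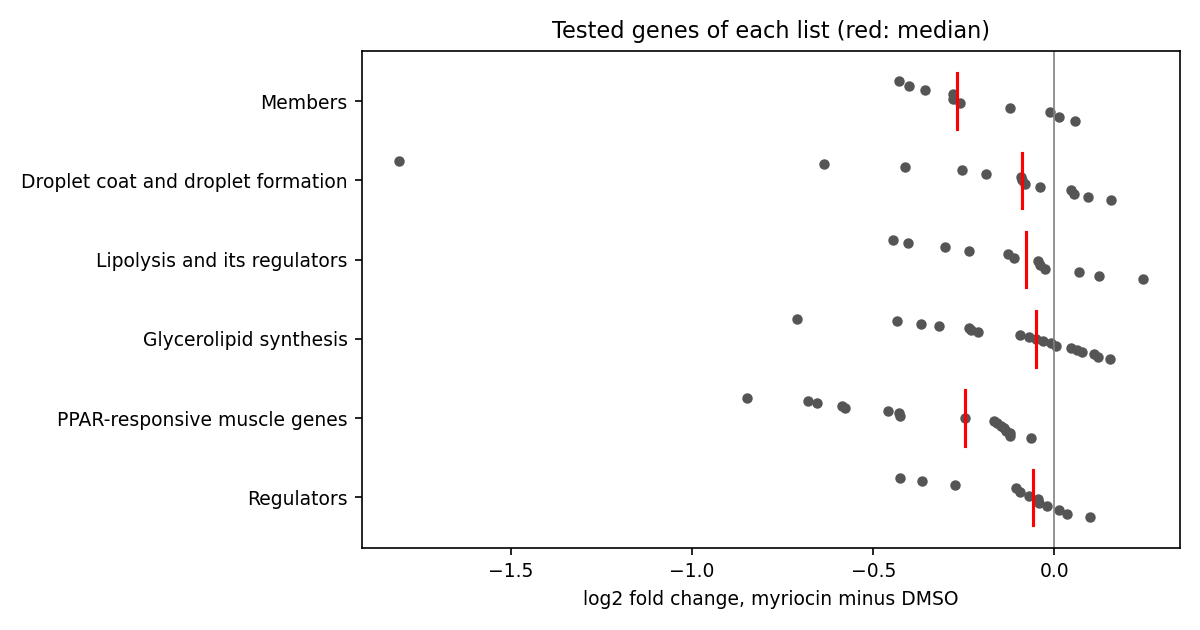
Log2 fold change, myriocin minus DMSO, of each tested gene in the 10 members and in 5 lists, with the median of each list in red. All points of the PPAR-responsive list lie below 0, with a median of -0.25, while the other lists spread on both sides.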

How the data were processed

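Quadriceps RNA was sequenced in 11 libraries. The authors deposited unnormalized counts of reads for each Ensembl gene ID. Per the submitters' processing notes, the tools were STAR 2.5.2b with HTSeq 0.6.0, and the build was GRCm38. Sources used here name neither the strand setting nor the annotation release. Of 53470 lines, 5 were summary lines with 24.8% to 28.2% of a library's reads, and stayed out. Symbols, coordinates and exon lengths came from GENCODE M21 (53360 genes matched).

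Genes were tested with edgeR 4.0.16 (R 4.3.3; filterByExpr, TMM scaling, robust quasi-likelihood F test, treatment as the single factor), adjusted by Benjamini-Hochberg over 14117 genes, with a threshold of 0.05. SE is the absolute log2 fold change over the square root of F. CPM per library is counts over gene totals. Log2 CPM has 0.5 added, except in the marker covariates, which used the log2 CPM of edgeR with a smaller addition. The fit was tested on simulated data. Correlations used 100000 permutations within groups. DESeq2 1.42.0 and limma 3.58.1 (voom) were alternatives.

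The 10 members and the lists were chosen with earlier results of these data known, and patterns already seen there are not independent support. Named are all members, in each pathway list the 3 genes of smallest p, G0s2, Plin1, Plin3 and Cidec, and the genes most alike in profile for members with an SD of at least 0.25 log2 CPM. Of the genes this rule names, 1 is not reported here. Marker genes named are among the 3 most abundant of their list. Same-numbered libraries were not paired by the labels, and their deviations did not go together (correlations from -0.14 to 0.08). No pair of libraries was a copy (chi-square per degree of freedom 8.18 to 44.2). The floor of 3 counts covers counting error alone, since reads without molecular identifiers can be PCR copies.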

Additional observations from a re-analysis of the deposited data

Results flagged for a closer look

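Of 20 sets of libraries (10 members in each group), 7 held a library far from the others. Chance flags about 1 in 20 where sets are independent. These sets share libraries, so 1 unusual library can be flagged several times. DMSO replicate 2 was far above the other DMSO libraries for Plin2 (64.5 CPM), Lipe (98.3 CPM), Dgat1 (37.7 CPM) and Dgat2 (133.0 CPM). The adipocyte markers were also highest in that library, and their part in these values was not tested. Myriocin replicate 1 was far above the other myriocin libraries for Plin4 (486 CPM). Myriocin replicate 4 was far above them for Dgat1 (20.4 CPM) and far below them for Gpam (56.6 CPM).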

How the results depend on the processing

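The number of members past the threshold was 0 in every alternative run, and the number of genes was 0 in all but DESeq2, which gave 3. Of 250 member log2 fold changes under alternatives, 233 kept their sign. The other 17 belong to Plin4, Lipe, Dgat1, Dgat2, Gpam and Lpin1, and the cause was not tested. With single libraries left out, Plin2 ran from -0.34 to -0.10, Plin5 from -0.58 to -0.28, Pnpla2 from -0.33 to -0.19 and Abhd5 from -0.21 to -0.087. Plin4 ran from -0.27 to 0.066, Lipe from -0.55 to 0.078, Dgat1 from -0.39 to 0.066, Dgat2 from -0.57 to 0.15 (and -0.20 without Myriocin replicate 3), Gpam from -0.045 to 0.19 and Lpin1 from -0.066 to 0.065. Lpin1 was -0.023 with library totals, which moved the median of all genes from -0.012 to -0.048. In alternatives chosen after seeing the data, it was -0.11 without DMSO replicates 2 and 5 and Myriocin replicate 4, and -0.11 without DMSO replicate 2 with the adipocyte covariate. Replicate numbers did not pair the samples. With the replicate number as a block over 10 libraries, 0 genes and 0 members passed, 508 genes had an unadjusted p under 0.05, and Gpam was at -0.0014.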
